A study of Mus musculus with 149 samples.

Results

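Fcer1a and Ms4a2 encode the alpha and the beta chain of the high-affinity IgE receptor, and their transcript levels were followed in the lungs of mice challenged with thymic stromal lymphopoietin (TSLP). They are 2 of the 13494 genes measured. Each gene was read by the probe sets that the platform annotation assigns to it alone, with the brightest first. A single probe set met that rule for each, 1421775_at for Fcer1a and 1443264_at for Ms4a2, of 26166 probe sets in the table. The position of each probe set within its transcript was not used here. Fcer1a lies at chr1:173221269-173227232 and Ms4a2 at chr19:11615517-11623790 in the mouse build GRCm38.p6.

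The high-affinity IgE receptor sits on mast cells and basophils. Its alpha chain binds the constant part of IgE, its beta chain crosses the membrane several times and amplifies the signal, and its gamma chain, encoded by Fcer1g, carries the signal inward and is shared with other Fc receptors. When antigen cross-links bound IgE, the kinases Lyn and Syk act on the beta and gamma chains, and the cell releases histamine, proteases and lipid mediators. TSLP is a cytokine of barrier epithelium that acts on dendritic cells, type 2 lymphoid cells, mast cells and basophils in allergic airway disease.

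Whole lungs of BALB/c mice were measured on 149 Affymetrix arrays, 1 per animal, to follow airway inflammation after TSLP. Mice were either naive or sensitized to ovalbumin (OVA), a model allergen. Each kind received saline, buffer alone (0.1% MSA, an abbreviation the labels leave unexpanded), or TSLP at 150, 500 or 1500 ng, and lungs were collected at 6 or 24 h. This gave 20 groups, 3 with 6 arrays, 5 with 7 and 12 with 8. All animals are of the BALB/c background and no genetic change is labelled. Age, sex, challenge route and sensitization schedule were not given in the sources used here. Buffer is the matched control of TSLP, and the 3 doses at a given time and sensitization share the same buffer arrays.

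Values are log2 RMA levels, which allow a comparison of 1 probe set across arrays and not of different genes. Differences between groups are in log2 units, with the standard error (SE) and the adjusted p of limma, a linear model with a moderated test, over all genes. An adjusted p under 0.05 is called. In bulk lung, fewer cells of a type and less RNA per cell cannot be told apart. Both probe sets lie in the dim part of the table: 5.83% of the genes had a lower overall mean than Fcer1a and 17.2% a lower one than Ms4a2. RMA values carry no detection call. The residual SD was 0.40 for Fcer1a and 0.37 for Ms4a2, against a median of 0.16 over the probe sets of all genes, so small differences are hard to see for these genes.

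On 6 arrays the squamous keratins Krt4 and Krt13 stood more than 2 log2 units above their medians, which marks squamous epithelium such as that of the gullet. They are animals 4 and 6 of naive buffer at 6 h, 7 of OVA buffer at 6 h, 5 of naive 150 ng at 6 h, 7 of OVA 1500 ng at 6 h and 8 of naive buffer at 24 h. The beta-actin 3' minus 5' difference, which rises with RNA degradation or short labelling, also moved with the groups. At 1500 ng it differed from buffer by -0.53 in naive and -1.31 in OVA mice at 6 h, and by 0.32 in both at 24 h. The exact permutation tests gave adjusted p of 0.0195, 0.000622, 0.0426 and 0.000622 in that order, over 8 tests. Its part in the results was not tested beyond the fit that takes it as a covariate.

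The stretches upstream of both genes are shown because the transcripts moved together across animals and GATA factors are known regulators of mast cell and basophil genes. They run 5′ to 3′ on the minus strand, at chr1:173227233-173227479 for Fcer1a and chr19:11623791-11623969 for Ms4a2 (RefSeq, GRCm38.p6), and end at the outer end of each gene. Capitals mark GATA on either strand (TATC is GATA read on the other strand).
Fcer1a: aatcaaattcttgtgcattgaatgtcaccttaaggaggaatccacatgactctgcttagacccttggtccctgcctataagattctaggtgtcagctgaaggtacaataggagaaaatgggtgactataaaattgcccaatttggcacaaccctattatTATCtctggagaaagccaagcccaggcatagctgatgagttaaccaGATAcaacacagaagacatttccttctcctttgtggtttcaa
Ms4a2: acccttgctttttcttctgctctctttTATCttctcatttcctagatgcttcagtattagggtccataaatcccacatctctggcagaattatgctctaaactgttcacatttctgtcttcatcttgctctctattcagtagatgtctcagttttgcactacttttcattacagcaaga
The Fcer1a window of 247 bases holds GATA 2 times, 1 on each strand, and the Ms4a2 window of 179 bases holds it 1 time. Of 32851 mouse promoter windows in the same table, 24.0% held at least 2 GATA in 247 bases and 45.6% held at least 1 in 179 bases. The E-box letters CANNTG occur 2 times in the Fcer1a window, which 31.4% of windows of that length match or exceed, and 0 times in the Ms4a2 window, where 55.3% of windows hold at least 1. No GATA overlapped a CANNTG in either window. These are letter matches, and no binding was measured.

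Across the 20 groups, Fcer1a means spanned 0.997 log2 units, a 1.996-fold range, from naive buffer at 24 h (5.89) to naive 1500 ng at 24 h (6.89). Ms4a2 means spanned 1.06 log2 units, a 2.08-fold range, from naive buffer at 24 h (6.86) to OVA 500 ng at 6 h (7.92). The lowest group was the same for both chains. In the order of means, all 19 neighbouring pairs of each gene differed by less than the pooled SD and had overlapping ranges, so the order is read only from end to end. For Fcer1a the 5 highest groups were naive 1500 ng at 24 h, OVA 500 ng at 6 h, OVA 500 ng at 24 h, OVA saline at 6 h and OVA 1500 ng at 24 h. For Ms4a2 they were OVA 500 ng at 6 h, OVA 1500 ng at 24 h, naive 1500 ng at 6 h, naive 1500 ng at 24 h and OVA 150 ng at 6 h. The 5 lowest groups were the same for both: saline and buffer at 24 h, naive and OVA, and naive 150 ng at 24 h.

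**Figure D1:**
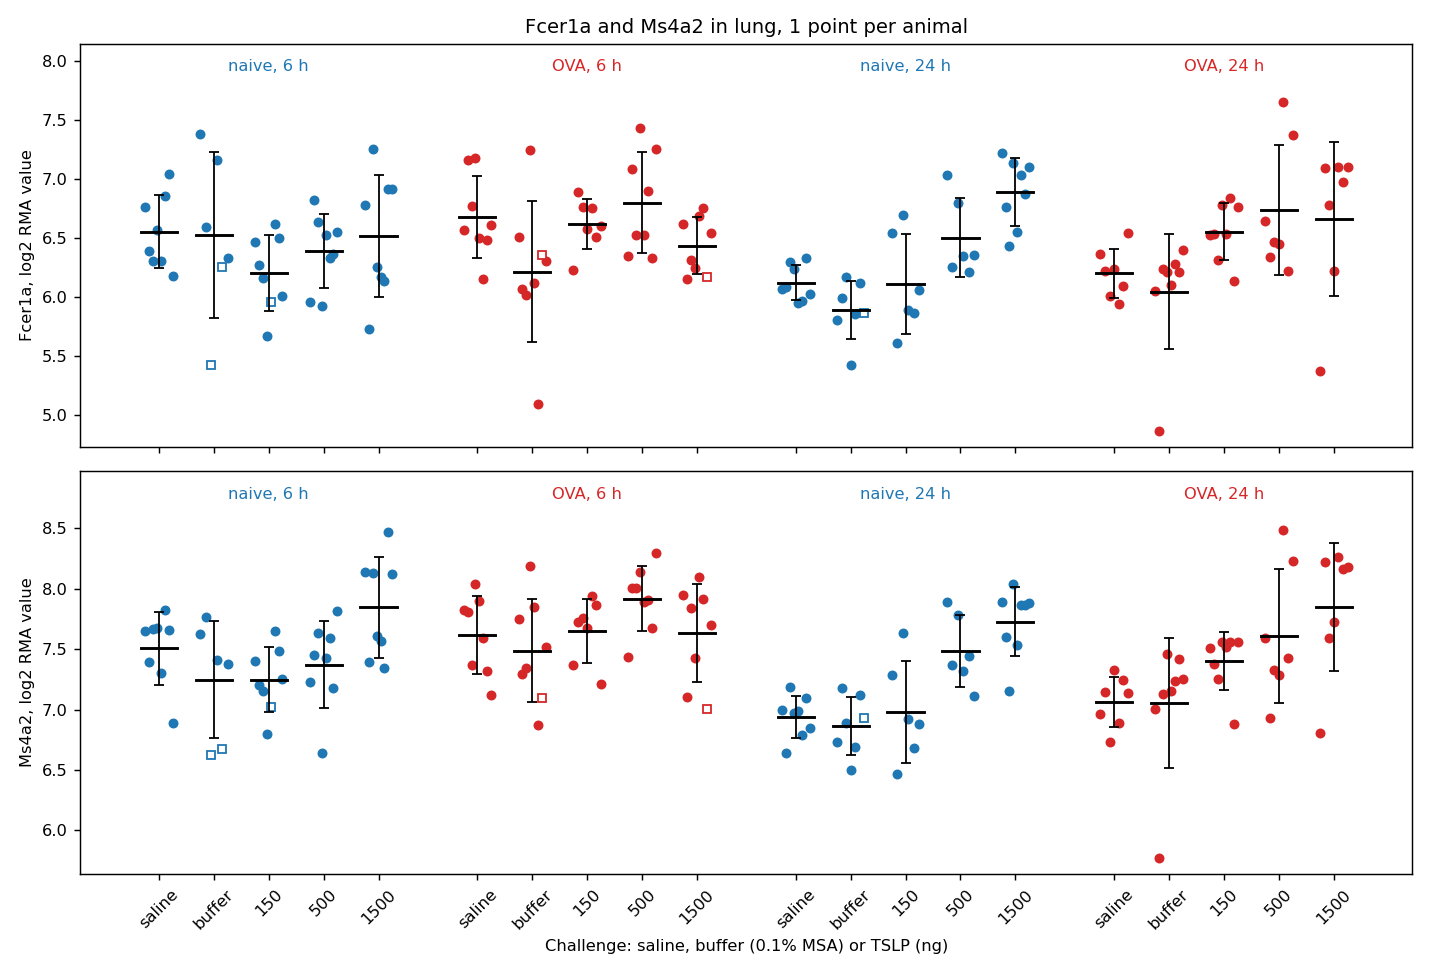
Log2 RMA level of Fcer1a and Ms4a2 on every array, by sensitization, time and challenge; each point is 1 animal, bars give the group mean with its SD, and open squares are the 6 arrays with gullet keratins. In naive mice at 24 h the Fcer1a means go from 5.89 after buffer to 6.89 after 1500 ng, and the lowest single values of both genes in OVA buffer at 24 h (4.87 and 5.77) belong to the same animal.

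In naive mice at 24 h, both chains rose after 1500 ng TSLP, Fcer1a 1.996-fold and Ms4a2 1.82-fold. Fcer1a, the IgE-binding chain, ranged from 5.42 to 6.17 after buffer (median 5.86, n = 7) and from 6.43 to 7.22 after 1500 ng (median 6.95, n = 8). Ms4a2, the amplifying chain, ranged from 6.50 to 7.18 after buffer (median 6.89) and from 7.15 to 8.04 after 1500 ng (median 7.86). For Fcer1a all 8 TSLP arrays lay above the highest buffer array, and for Ms4a2 7 of 8 did. The Fcer1a difference was 0.997 (SE 0.21, 95% interval 0.59 to 1.41, adjusted p = 0.00334) and the Ms4a2 difference 0.87 (SE 0.19, 95% interval 0.49 to 1.24, adjusted p = 0.00472). In this comparison 0.608% of all genes were called higher, and 0.237% had all TSLP arrays above all buffer arrays. Both calls also held in each of the other fits of all arrays and with any 1 array of the compared groups left out.

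At the lower doses in naive mice at 24 h, neither chain was called. After 150 ng Fcer1a ranged from 5.61 to 6.70 (median 5.98, n = 6) and after 500 ng from 6.21 to 7.03 (median 6.35, n = 6). Ms4a2 ranged from 6.47 to 7.64 (median 6.90) after 150 ng and from 7.11 to 7.89 (median 7.41) after 500 ng. The 150 ng arrays overlapped buffer for both genes, while after 500 ng all 6 Fcer1a arrays and 5 of 6 Ms4a2 arrays lay above the highest buffer array. The 500 ng differences were 0.61 for Fcer1a (SE 0.22, 95% interval 0.17 to 1.05, unadjusted p = 0.00693, adjusted p = 0.950) and 0.62 for Ms4a2 (SE 0.20, 95% interval 0.23 to 1.02, unadjusted p = 0.00237, adjusted p = 0.950). limma called 0 genes in that comparison (0.00%), with 637 at an unadjusted p under 0.05, and 0.111% of genes had all TSLP arrays above all buffer arrays. The 150 ng differences were 0.22 for Fcer1a (adjusted p = 0.787) and 0.12 for Ms4a2 (adjusted p = 0.897), where 0.0889% of genes were called higher.

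In OVA-sensitized mice at 24 h, both chains rose after 500 and 1500 ng. After buffer Fcer1a ranged from 4.87 to 6.40 (median 6.21, n = 8), and after 150, 500 and 1500 ng its medians were 6.53 (6.14 to 6.84, n = 8), 6.47 (6.22 to 7.65, n = 7) and 6.98 (5.37 to 7.10, n = 7). The Ms4a2 median was 7.20 after buffer (5.77 to 7.46), then 7.51 (6.88 to 7.56), 7.43 (6.93 to 8.49) and 8.16 (6.80 to 8.26) with rising dose. All of these ranges overlapped buffer. After 1500 ng, 6 of 7 arrays lay above the buffer mean for each gene, and animal 1 was the low one in both.

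At 1500 ng in OVA mice at 24 h the Ms4a2 difference was 0.79 (SE 0.19, adjusted p = 0.000368), a 1.73-fold rise, and the Fcer1a difference 0.62 (SE 0.21, adjusted p = 0.0120), 1.54-fold. Called higher were 21.0% of all genes, so a call is common in this comparison. Without animal 2 of the buffer group the Fcer1a difference was 0.45 (adjusted p = 0.0751), while the Ms4a2 call held with any 1 array left out. The 500 ng differences were 0.69 for Fcer1a (SE 0.21, adjusted p = 0.0186) and 0.56 for Ms4a2 (SE 0.19, adjusted p = 0.0375), with 7.43% of genes called higher. Both lost their call without that same buffer animal or without animal 5 or 8 of the 500 ng group, and Ms4a2 also without buffer animal 1 or 3. At 150 ng the differences were 0.51 for Fcer1a (adjusted p = 0.0789) and 0.35 for Ms4a2 (adjusted p = 0.196), with 7.20% of genes called higher.

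In naive mice at 6 h, Fcer1a did not pass the test at any dose, and Ms4a2 rose after 1500 ng. Fcer1a ranged from 5.42 to 7.38 after buffer (median 6.46, n = 6), and its medians after 150, 500 and 1500 ng were 6.22 (5.67 to 6.62), 6.45 (5.93 to 6.82) and 6.52 (5.73 to 7.25), with n = 8 each. Its differences from buffer were -0.32, -0.13 and -0.01, with adjusted p of 0.273, 0.648 and 0.988. At 1500 ng the 95% interval of the Fcer1a difference ran from -0.43 to 0.42.

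Ms4a2 in naive mice at 6 h ranged from 6.62 to 7.76 after buffer (median 7.39), from 6.80 to 7.65 after 150 ng (median 7.23), from 6.64 to 7.81 after 500 ng (median 7.44) and from 7.34 to 8.47 after 1500 ng (median 7.86). After 1500 ng, 8 of 8 arrays lay above the buffer mean and 4 above the highest buffer array. The 1500 ng difference was 0.60 (SE 0.20, adjusted p = 0.0254), in a comparison where 5.53% of genes were called higher. The differences at 150 and 500 ng were 0.00 and 0.13 (adjusted p = 0.997 and 0.631), with 27.2% and 42.1% of genes called in either direction. Buffer animals 4 and 6, which carried gullet keratins, read 6.62 and 6.67 for Ms4a2 and 5.42 and 6.26 for Fcer1a. Both were below all 4 other buffer arrays, which averaged 7.54 and 6.87. The Ms4a2 call at 1500 ng was lost without buffer animal 4 or 6 or without TSLP animal 7 (adjusted p from 0.0652 to 0.101). Without the 6 keratin arrays the 1500 ng difference of Ms4a2 was 0.30 (adjusted p = 0.303), and that of Fcer1a at 150 ng was -0.62 (adjusted p = 0.0351).

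In OVA mice at 6 h, both chains rose after 500 ng and neither was called after 150 or 1500 ng. Fcer1a ranged from 5.09 to 7.24 after buffer (median 6.21, n = 8), with medians of 6.60 (6.23 to 6.89, n = 7), 6.71 (6.33 to 7.43, n = 8) and 6.43 (6.15 to 6.76, n = 8) at the rising doses. Ms4a2 ranged from 6.87 to 8.19 after buffer (median 7.43), with medians of 7.72 (7.21 to 7.94), 7.95 (7.44 to 8.29) and 7.77 (7.01 to 8.09). Each TSLP range overlapped buffer, and both genes had their highest mean at the middle dose. The 500 ng differences were 0.58 for Fcer1a (SE 0.20, adjusted p = 0.0133, 8 of 8 arrays above the buffer mean) and 0.43 for Ms4a2 (SE 0.18, adjusted p = 0.0467, 7 of 8), where 19.0% of genes were called higher. The Fcer1a call was lost without buffer animal 6 (highest adjusted p over the arrays left out, 0.0855), and the Ms4a2 call was lost with 11 of 16 arrays left out in turn (highest 0.139).

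At 1500 ng in OVA mice at 6 h, where 24.8% of genes were called higher, Fcer1a differed from buffer by 0.22 (95% interval -0.17 to 0.62, adjusted p = 0.342) and Ms4a2 by 0.14 (95% interval -0.22 to 0.50, adjusted p = 0.515). This group also had the largest beta-actin difference from buffer. At 150 ng the differences were 0.40 for Fcer1a (adjusted p = 0.463, 7 of 7 arrays above the buffer mean) and 0.16 for Ms4a2 (adjusted p = 0.795), with 0.133% of genes called higher. Over the 12 dose comparisons with buffer, 4 were called higher for Fcer1a and 5 for Ms4a2, and 0 lower for either in limma.

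**Figure D2:**
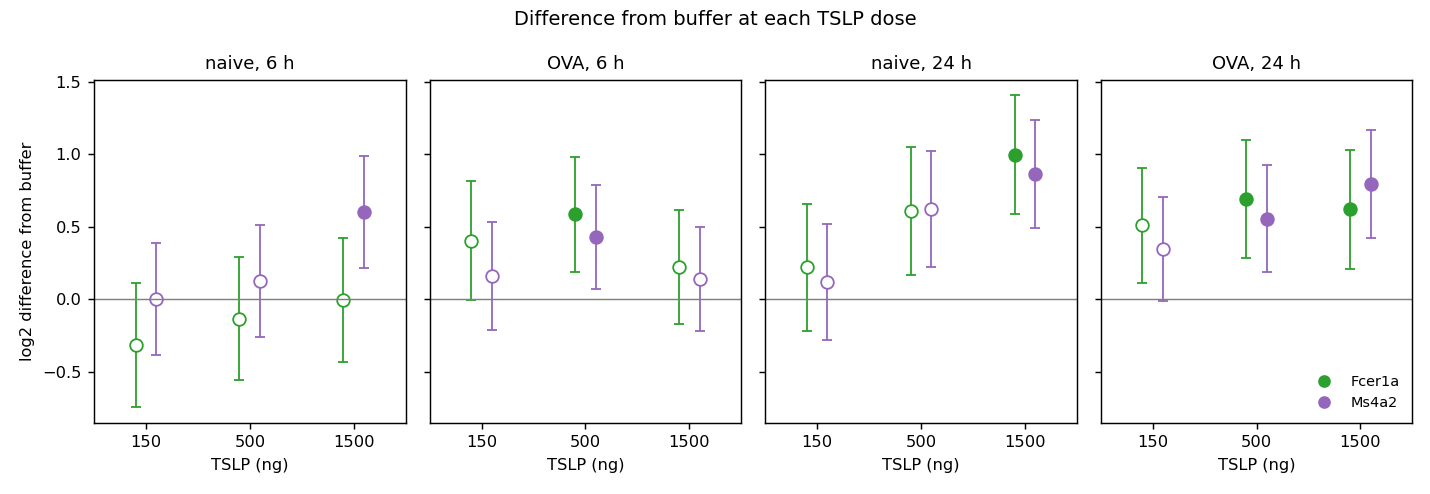
Difference of Fcer1a and Ms4a2 from buffer in log2 units at each TSLP dose (doses equally spaced), for naive and OVA mice at 6 and 24 h. Bars are 95% intervals of the limma fit and filled points have an adjusted p under 0.05. The largest differences are those of 1500 ng in naive mice at 24 h, 0.997 for Fcer1a and 0.87 for Ms4a2, and at 6 h both genes are at 0.22 or below after 1500 ng except Ms4a2 in naive mice (0.60).

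Dose was compared among the TSLP groups alone, without the shared buffer. In naive mice at 24 h the means from buffer to 1500 ng went 5.89, 6.11, 6.50 and 6.89 for Fcer1a, and 6.86, 6.98, 7.49 and 7.73 for Ms4a2, higher at each step. The slope over dose was 0.75 log2 units per 10-fold dose for Ms4a2 (SE 0.20, adjusted p = 0.0460), with 0.252% of genes called with a positive slope, and 0.78 for Fcer1a (SE 0.22, adjusted p = 0.0649). The difference of 1500 from 150 ng was 0.75 for Ms4a2 (adjusted p = 0.0448) and 0.78 for Fcer1a (adjusted p = 0.0578), with 0.289% of genes called higher. Leaving out any 1 of animals 1, 2, 4, 6, 7 and 8 at 1500 ng ended the Ms4a2 calls (adjusted p up to 0.143). These calls, slope first, were also lost with every probe set in the fit (adjusted p = 0.0514 and 0.05002), with the compared groups alone (0.0627 and 0.0792) and with the beta-actin covariate (0.0830 and 0.0882). Both Fcer1a values were called with array weights (0.66 each, adjusted p = 0.00662), without the keratin arrays (0.0491 and 0.0460) and without animal 3 or 5 of the 1500 ng group (0.0307 to 0.0405). In the other 3 settings no slope was called for either gene. Of all genes, 23 (naive, 6 h), 6801 (OVA, 6 h) and 2029 (OVA, 24 h) were called there in either direction. Over all 4 settings 3 slopes of Ms4a2 and 1 of Fcer1a had an unadjusted p under 0.05 by limma. Ms4a2 means were also higher at each dose step in naive mice at 6 h and OVA mice at 24 h, and Fcer1a means were not.

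Saline gives a second control. Of 4 comparisons of buffer with saline, limma called 0 for either chain, with differences from -0.47 to -0.03 for Fcer1a and from -0.26 to -0.01 for Ms4a2, all negative. Of these comparisons 1 for Fcer1a and 0 for Ms4a2 had an unadjusted p under 0.05. Of all 13494 genes, 2014 were called in naive and 48 in OVA mice at 6 h, and 1 in naive and 119 in OVA mice at 24 h. The lack of a call is thus ordinary there, most of all outside naive mice at 6 h. At 24 h in naive mice, saline values ranged from 5.95 to 6.33 for Fcer1a (median 6.08) and from 6.64 to 7.19 for Ms4a2 (median 6.98). Against saline, 1500 ng was higher by 0.77 for Fcer1a (SE 0.20, adjusted p = 0.0374) and by 0.79 for Ms4a2 (SE 0.18, adjusted p = 0.0184), where 0.400% of genes were called higher. The Fcer1a call was lost without any 1 of animals 1, 2, 4, 7 and 8 of the TSLP group (adjusted p from 0.0547 to 0.125), and the Ms4a2 call without animal 4 (adjusted p = 0.0522). In OVA mice at 24 h, with saline medians of 6.22 and 7.13, Ms4a2 was higher by 0.79 (SE 0.19, adjusted p = 0.000917, 15.8% of genes called higher) and Fcer1a by 0.46 (SE 0.21, adjusted p = 0.0901). That Fcer1a difference was 0.74 and called with array weights (adjusted p = 0.000220), and 0.68 and called without animal 1 of the 1500 ng group (adjusted p = 0.00990). Over 12 comparisons with saline for each gene, limma over all arrays called 1 for Fcer1a and 2 for Ms4a2. In these comparisons 2 (500 ng in naive and 150 ng in OVA mice, 24 h) to 8378 (1500 ng in OVA mice, 6 h) of all genes were called in either direction. At 6 h the saline medians were 6.48 in naive and 6.59 in OVA mice for Fcer1a, and 7.66 and 7.70 for Ms4a2. Saline lungs at 6 h thus held levels as high as several TSLP groups.

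In control lungs 5 of 8 comparisons of 24 with 6 h were called, all lower at 24 h. Fcer1a fell by 0.63 in naive buffer (SE 0.22, adjusted p = 0.0130) and by 0.48 in OVA saline (SE 0.21, adjusted p = 0.0373), and its differences were -0.43 in naive saline (adjusted p = 0.0525) and -0.17 in OVA buffer (adjusted p = 0.470, with 4 of 8 arrays above the 6 h mean). Ms4a2 fell by 0.57 in naive saline (SE 0.18, adjusted p = 0.00459), by 0.56 in OVA saline (SE 0.19, adjusted p = 0.00683) and by 0.43 in OVA buffer (SE 0.18, adjusted p = 0.0305), and its difference in naive buffer was -0.38 (adjusted p = 0.105). The Fcer1a call in naive buffer was lost without animal 2 or 5 at 6 h (adjusted p = 0.0914 and 0.0678). The Ms4a2 call in OVA buffer was lost without animal 2 at 24 h (-0.25, adjusted p = 0.218) or animal 1, 4 or 5 at 6 h (0.0590 to 0.110). Without the keratin arrays the naive buffer difference of Ms4a2 was -0.69 (adjusted p = 0.00747), and it was also called without animal 4 or 6 alone (adjusted p = 0.0378 and 0.0380). Of all genes, 31.5% were called lower in naive buffer, 36.1% in naive saline, 35.7% in OVA saline and 35.8% in OVA buffer, so such a call is ordinary there. The beta-actin difference of 24 from 6 h lay between -1.30 and -0.89 in the same groups, and with it as a covariate none of the 5 calls was kept (adjusted p from 0.113 to 0.781). In the 6 comparisons of 24 with 6 h after TSLP neither gene was called. Fewer of all genes were called there too, 298 (naive 500 ng) to 6096 (OVA 150 ng) in either direction. In the controls 6728 (naive buffer) to 8337 (OVA buffer) were called.

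The effect of 1500 ng at 24 h was set against that at 6 h in the same fit. For Fcer1a in naive mice it was larger at 24 h by 1.004 (SE 0.30, 95% interval 0.41 to 1.59, adjusted p = 0.0125), with 11.4% of genes called in that direction. For Ms4a2 in OVA mice it was larger by 0.65 (SE 0.26, 95% interval 0.14 to 1.17, adjusted p = 0.0244), with 34.7% of genes called. Both hold a fall of the buffer group. From 6 to 24 h the naive Fcer1a means went from 6.52 to 5.89 after buffer and from 6.52 to 6.89 after 1500 ng. The OVA means of Ms4a2 went from 7.49 to 7.05 after buffer and from 7.63 to 7.85 after 1500 ng. The other pairs gave 0.40 for Fcer1a in OVA mice (adjusted p = 0.229) and 0.26 for Ms4a2 in naive mice (adjusted p = 0.531). With the beta-actin covariate the first 2 differences were 0.91 (adjusted p = 0.130) and 0.25 (adjusted p = 0.612). Leaving out naive buffer animal 2 at 6 h took the Fcer1a difference to an adjusted p of 0.0509, and 4 single arrays each ended the Ms4a2 call, the highest adjusted p being 0.0980.

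Few differences of the chains between OVA and naive mice were called. Of 10 comparisons of OVA with naive mice at the same challenge and time, 0 were called for Fcer1a, with differences from -0.31 to 0.44 and adjusted p from 0.0932 to 0.820 by limma (3 had an unadjusted p under 0.05). In the same comparisons 1156 (buffer, 24 h) to 6203 (150 ng, 6 h) of all 13494 genes were called in either direction. With array weights 500 ng at 6 h was called for Fcer1a (0.55, adjusted p = 0.00490, against 0.41 and 0.106). For Ms4a2 1 was called, 500 ng at 6 h, with 0.55 (SE 0.18, adjusted p = 0.0139), where 18.3% of genes were called higher. That call was lost with the beta-actin covariate (0.46, adjusted p = 0.0585) and without animal 4 of naive 500 ng (0.44, adjusted p = 0.0594). After buffer the differences of OVA from naive mice were -0.31 and 0.15 for Fcer1a and 0.24 and 0.19 for Ms4a2 at 6 and 24 h. Without the keratin arrays the 6 h buffer difference of Fcer1a was -0.67 (adjusted p = 0.0278). The TSLP effect itself was not called as different between OVA and naive mice for either gene at any of 3 doses and 2 times. Of all genes, 216, 986 and 4291 were called there at the rising doses at 6 h, and 14, 0 and 596 at 24 h. The 6 differences ran from -0.38 to 0.72 for Fcer1a and from -0.46 to 0.30 for Ms4a2. By limma 2 of them for Fcer1a and 0 for Ms4a2 had an unadjusted p under 0.05. For 1500 ng at 24 h the difference of the TSLP effect was -0.38 for Fcer1a (SE 0.29, adjusted p = 0.470) and -0.07 for Ms4a2 (SE 0.27, adjusted p = 0.902).

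From animal to animal, Fcer1a and Ms4a2 went up and down together. Within groups Pearson's r was above 0 in 20 of 20 groups, from 0.40 to 0.97 with a median of 0.84. By exact permutation over pairings 11 groups had an adjusted p under 0.05 over the 20. Without the 2 arrays farthest from the median of Fcer1a, r was above 0 in 18 groups, with a median of 0.63, and turned to -0.27 in OVA saline at 6 h and -0.83 in naive 500 ng at 24 h, where the relation rests on those arrays. With each value centred on its group mean, r over 149 arrays was 0.82 and Spearman's rho 0.80 (permutation p = 1e-05 for each, the smallest that the permutations can give), and r was 0.79 without the 2 farthest arrays. Leaving out the 6 keratin arrays gave r = 0.82 over 143. The lowest array was the same for both genes in 11 of 20 groups and the highest in 6. The values share each animal's RNA and array.

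**Figure D3:**
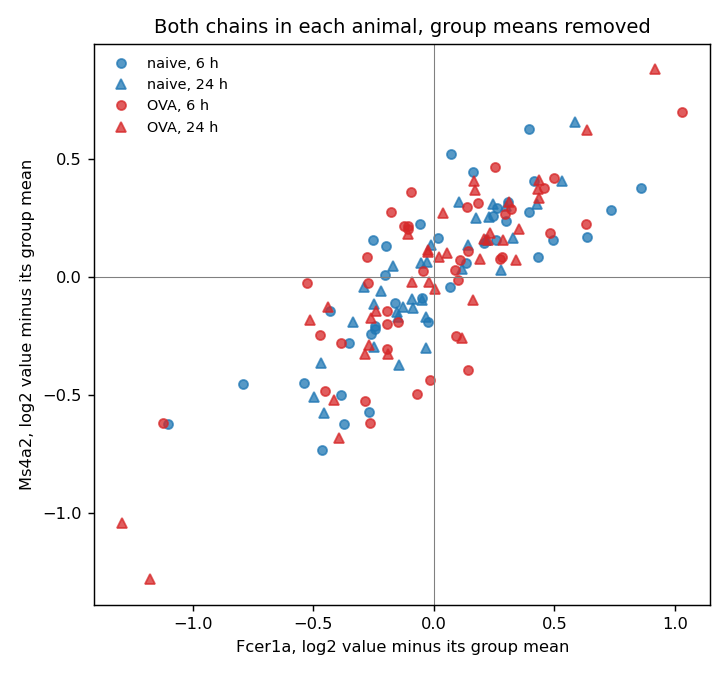
Fcer1a against Ms4a2 on 149 arrays, each value minus its group mean in log2 units, 1 point per animal. The cloud runs from low to high for both genes (r = 0.82). Animal 2 of OVA buffer and animal 1 of OVA 1500 ng, both at 24 h, lie at its lower left end.

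The change of Ms4a2 minus that of Fcer1a was also tested per comparison, a test chosen after the values were seen. None of 12 passed the adjustment in exact permutation tests (smallest adjusted p 0.0799, with 2 of 12 at an unadjusted p under 0.05). The difference was 0.61 (SE 0.21) for 1500 ng in naive mice at 6 h, where Ms4a2 was called and Fcer1a was not. In naive mice at 24 h it was -0.13 and in OVA mice at 24 h 0.17 at the same dose.

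Fcer1g, the signalling gamma chain, gave group means unlike those of the alpha and beta chains. Its means over the 20 groups lay between 11.1 and 11.6. After 1500 ng it differed from buffer by 0.04 in naive mice at 24 h (adjusted p = 0.866), where both other chains rose, and by 0.01 in naive mice at 6 h (adjusted p = 0.945). It rose by 0.33 in OVA mice at 6 h (SE 0.09, adjusted p = 0.000530) and fell by 0.24 in OVA mice at 24 h (SE 0.09, adjusted p = 0.0240). Over group means its r was 0.01 with Fcer1a and -0.15 with Ms4a2. Within groups it was 0.40 and 0.36, at ranks 197 and 269 among 12788 genes, so there it went partly with both chains. Many myeloid cells express Fcer1g.

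Of 30 genes of the gamma chain and the signalling downstream of the receptor, 27 were measured. After 1500 ng, 0 rose and 0 fell in naive mice at either time by limma (5 at 6 h and 6 at 24 h had an unadjusted p under 0.05), with medians of -0.05 at 6 h and 0.10 at 24 h against -0.03 and 0.03 over all genes. Of all 13494 genes, 2071 were called in naive mice at 6 h and 132 at 24 h. An unadjusted p under 0.05 was found for 4173 and 2021. In OVA mice at 6 h, 14 rose and 6 fell, and at 24 h 12 rose and 4 fell, with medians of 0.17 and 0.22 against -0.06 and 0.01. Among all genes tested the share called higher in OVA mice was 24.8% at 6 h and 21.0% at 24 h, and the share called lower was 35.9% and 17.5%. These counts and shares stand beside the other gene lists below as well. At 6 h the members with the smallest p were Pik3r1, a regulatory subunit of PI3 kinase (0.75), the adaptor Grb2 (0.28), the adaptor Gab2 (-0.31) and the kinase Syk (-0.60), with adjusted p of at most 2.69e-06. At 24 h they were Pik3cd, the PI3 kinase delta subunit (0.78), the adaptor Dok1 (0.46), Gab2 (0.28) and the calcium sensor Stim1 (-0.28), with adjusted p of at most 0.000400. Gab2 thus fell at 6 h and rose at 24 h. These genes act in many immune cells of the lung.

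Among 7 measured members of 8 other Fc receptors and IgE binding proteins, 0 were called in naive mice at 1500 ng by limma, and 0 had an unadjusted p under 0.05. Of all genes 2071 were called there at 6 h and 132 at 24 h. In OVA mice at 6 h 2 rose, the low-affinity IgG receptors Fcgr3 (0.53) and Fcgr2b (0.74), where 24.8% of all genes rose. At 24 h the inhibitory Fcgr2b rose (0.55, adjusted p = 0.00828) and the high-affinity IgG receptor Fcgr1 fell (-0.65, adjusted p = 0.000333). Fcgr2b was also higher in OVA than in naive buffer lungs, by 0.62 at 6 h and 1.13 at 24 h (adjusted p = 0.00538 and 1.09e-06). Of the other MS4A genes, relatives of Ms4a2 that cross the membrane in the same way, 9 of 14 were measured. None was called in naive mice, and 0 had an unadjusted p under 0.05, beside the same counts over all genes. In OVA mice at 6 h 3 rose, Ms4a6d (0.83), Ms4a4b (0.43) and Ms4a6c (0.35), and Ms4a15 fell (-0.47), beside 24.8% and 35.9% of all genes, and at 24 h Ms4a4d fell (-0.39). None of the called relatives was called at both times.

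Transcription factors known to act on the receptor genes gave 11 measured of 12, without Mitf. In naive mice Fli1 rose at 6 h (0.50, adjusted p = 0.0451) and 0 of 11 were called at 24 h by limma, with 0 at an unadjusted p under 0.05. Of all genes 5.53% were called higher at 6 h and 0.608% at 24 h. In OVA mice 6 rose and 2 fell at 6 h, among them Sp1 (0.73), Stat5a (0.38), Elf1 (0.60) and the GATA cofactor Zfpm1 (-0.61), where 24.8% of all genes rose and 35.9% fell. At 24 h Gata1 rose (0.39, adjusted p = 0.0434) while Sp1 (-0.39), Gata2 (-0.37) and Fli1 (-0.59) fell. Gata2, a factor that basophils and mast cells need, was at 0.05 in naive mice at 24 h (adjusted p = 0.866), where both receptor chains rose. Which cells of the whole lung gave the Gata2 signal was not tested, so its level need not follow the cells that carry the receptor.

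Of 12 genes for mediator synthesis and granule storage 10 were measured. In naive mice Hdc, the enzyme that makes histamine, fell by 0.26 at 6 h (adjusted p = 0.00723), in a comparison where 9.82% of genes fell. At 24 h 0 were called by limma and 3 had an unadjusted p under 0.05, beside 132 and 2021 of all genes. In OVA mice 5 rose and 3 fell at 6 h, against 24.8% and 35.9% of all genes. Hdc fell by 0.34 and the leukotriene helper Alox5ap fell by 0.31, while the granule proteoglycan Srgn (0.45) and the heparin enzyme Ndst2 (0.43) rose. At 24 h Hdc rose by 0.22 and Ndst2 fell by 0.28. Of 13 cytokines and receptors that support or activate mast cells and basophils 9 were measured. The mast cell growth factor Kitl rose in naive mice at 6 h (0.31), and in OVA mice at 6 h Kit (0.90), Il33 (0.76), Kitl (0.40) and Il4 (0.82) were among 5 that rose, with 2 that fell, beside the same shares of all genes. At 24 h in OVA mice the IL-3 receptor chain Il3ra (0.42, adjusted p = 0.000149) and the TSLP receptor chain Crlf2 (0.16, adjusted p = 0.0448) rose.

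Markers of the cells that carry the receptor did not all move alike. Of 6 basophil markers 5 were measured, and of 12 mast cell markers 7. Gata2, Kit and Hdc stand both here and in a list above. Which cells of the whole lung gave the signal of each marker was not tested. Mcpt8, a protease of basophils, rose after 1500 ng in all 4 settings, by 1.30 in naive and 1.91 in OVA mice at 6 h and by 0.98 and 0.87 at 24 h (adjusted p from 7.38e-14 to 0.00608). Cd200r3, an activating receptor found on basophils, rose by 0.81 and 0.77 at 6 h, and its 24 h differences were 0.64 and 0.49 (adjusted p = 0.121 and 0.0633). The other 3 basophil markers, Enpp3, Itga2 and Gata2, were not called in naive mice. In OVA mice Itga2 rose by 0.25 at 6 h and fell by 0.32 at 24 h, as Gata2 did by 0.33 and 0.37. At 6 h in OVA mice Mcpt8 thus rose where neither receptor chain was called, and whether the changes of these genes differ was not tested.

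The mean over the 5 basophil markers ranged in naive mice at 24 h from 8.00 to 8.40 after buffer and from 8.27 to 8.74 after 1500 ng. In OVA mice it ranged from 7.58 to 8.35 after buffer and from 7.52 to 8.56 after 1500 ng at 24 h, and from 7.68 to 8.28 and 8.21 to 9.003 at 6 h. In naive mice at 6 h the ranges were 7.73 to 8.58 and 8.28 to 9.10. The ranges overlapped in all 4 settings. At 6 h the median difference of the 5 markers was 0.21 in naive and 0.33 in OVA mice, with 2 and 4 called higher. At 24 h it was 0.13 in naive mice, with 1 called higher. In OVA mice at 24 h it was -0.24, with 1 called higher and 2 lower. Of all genes, 5.53% and 24.8% were called higher at 6 h, and 0.608% and 21.0% at 24 h. In OVA mice at 24 h 17.5% were called lower. Where both chains rose in naive mice at 24 h, 0 of the measured markers of eosinophils (4), neutrophils (4), dendritic cells (6), B cells (4), lung epithelium (6) and endothelium (6) were called by limma, and 0 had an unadjusted p under 0.05. Of the markers of T cells (5) and monocytes (4) 0 were called and 1 of each had an unadjusted p under 0.05. Over all 13494 genes 132 were called there and 2021 had an unadjusted p under 0.05. A count of 0 called is thus ordinary for lists of this size. The part of cell number in the rise of the chains was not tested.

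Markers of tissues around the lung also moved. Of 6 fat markers 3 were measured, and after 1500 ng 2 rose in OVA mice at 6 h (median 1.47) and 3 fell in OVA mice at 24 h (median -2.64). Of all genes 24.8% were called higher in OVA mice at 6 h and 17.5% lower at 24 h. Their mean level in OVA mice at 24 h ranged from 8.60 to 12.7 after buffer and from 7.66 to 10.5 after 1500 ng. Their median difference in naive mice at 24 h was 0.98, with 0 called by limma and 1 at an unadjusted p under 0.05, and the ranges were 8.71 to 11.99 and 10.2 to 12.1. Where Ms4a2 rose in naive mice at 6 h, 2 of 6 gullet markers and 2 of 6 striated muscle markers fell (medians -1.94 and -1.58), beside 9.82% of all genes. The gullet markers ranged there from 5.79 to 13.0 after buffer and from 5.81 to 6.23 after 1500 ng. The muscle markers ranged from 8.89 to 13.2 and from 8.45 to 9.57. In the other 3 settings at 1500 ng limma called 0 of either list, with 0 at an unadjusted p under 0.05. The part of these tissues in the results was not tested beyond leaving out the keratin arrays.

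The mast cell markers also differed from one another. In naive mice at 24 h, where both chains rose, their median difference was 0.18. It was 0.13 for the 5 basophil markers and 0.03 over all genes. None of the 7 mast cell markers was called there, where 0.608% of genes were called higher. Cpa3, the mast cell carboxypeptidase, was not called in any 1500 ng comparison (differences from -0.27 to 0.46, the highest in naive mice at 24 h), nor was the tryptase Tpsb2 (-0.18 to 0.30). Kit, the stem cell factor receptor, was called at 1500 ng in OVA mice at 6 h alone (0.90). The mucosal protease Mcpt1 rose in OVA mice at 24 h (0.91, adjusted p = 0.0166), while Mcpt4, of connective tissue mast cells, fell there (-0.93, adjusted p = 0.000102). Mcpt2, a mucosal mast cell protease, was far higher in OVA than in naive buffer lungs, by 2.36 at 6 h and 2.19 at 24 h (adjusted p = 3.91e-06 and 5.47e-05), in comparisons where neither receptor chain was called and 15.7% and 5.03% of genes were called higher. The mean over the 7 mast cell markers ranged from 7.49 to 7.67 after buffer and 7.65 to 8.30 after 1500 ng in naive mice at 24 h, and from 7.22 to 8.71 and 7.77 to 8.55 in OVA mice.

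The genes most like the chains were ranked by Pearson's r among 12788 others, as a description over points that share animals, RNA and arrays. After centring on group means, over 149 arrays, the same 5 genes led for both chains. Besides each other these were Mcpt8 (r = 0.78 with Fcer1a and 0.82 with Ms4a2), Cyp11a1, a steroid-making enzyme (0.77 and 0.80), Cd200r3 (0.70 and 0.75) and Nfe2, a transcription factor of megakaryocytes and red cell precursors (0.60 and 0.63). The other basophil markers were lower: Enpp3 0.26 and 0.27, Itga2 0.32 and 0.18, and Gata2 0.20 and 0.29. Among mast cell markers Cpa3 gave 0.43 with each. The rest were lower: Mcpt1 0.29 and 0.27, Mcpt2 0.25 and 0.24, Kit 0.06 and 0.18, Hdc 0.06 and 0.12, Tpsb2 -0.07 and -0.10, and Mcpt4 -0.14 and -0.19.

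**Figure D4:**
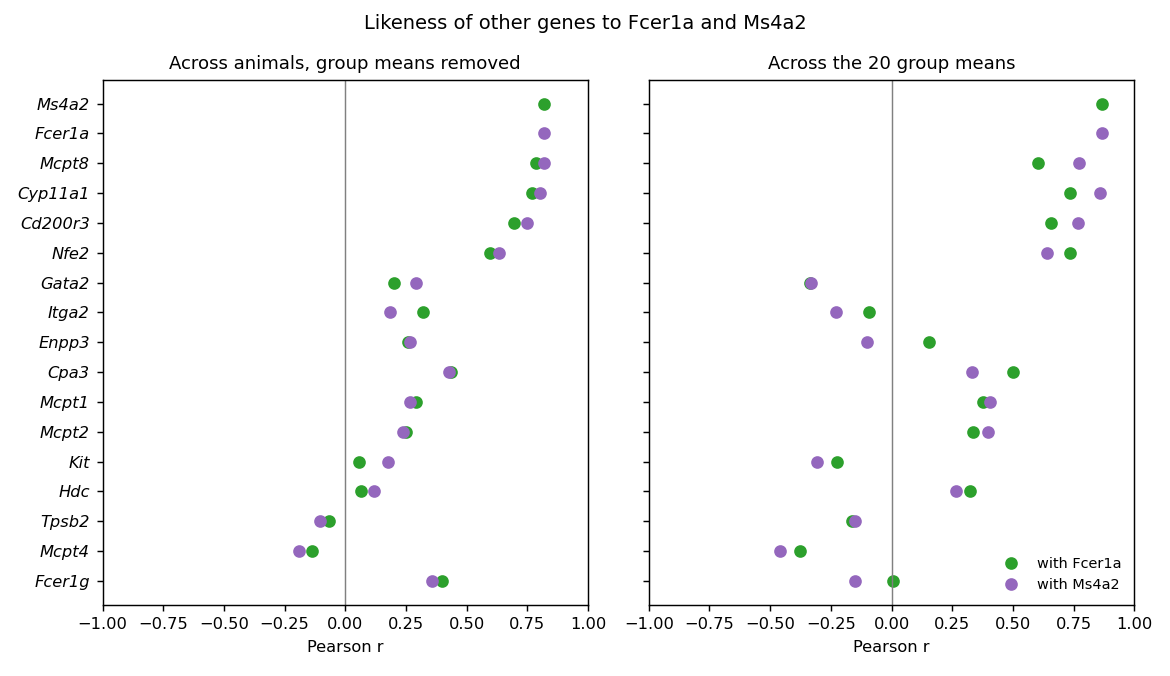
Pearson's r of named genes with Fcer1a and with Ms4a2 over 149 arrays after each value was centred on its group mean, and over the 20 group means. Mcpt8, Cyp11a1 and Cd200r3 lie at 0.70 or above with both chains after centring, while Kit, Tpsb2 and Mcpt4 lie at 0.18 or below. The other basophil markers, Enpp3, Itga2 and Gata2, lie from 0.18 to 0.32 after centring.

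Over the 20 group means, the genes closest to Fcer1a were Ms4a2 (r = 0.87), Irf1 (0.75), Emilin2 (0.75), Nfe2 (0.74), Cyp11a1 (0.74), Prpf31 (0.71), Pgm2 (0.70), Mefv (0.70), Lss (0.69) and Dcp2 (0.68). Those closest to Ms4a2 were Fcer1a, Cyp11a1 (0.86), Mcpt8 (0.77), Irf1 (0.77), Cd200r3 (0.77), Adamts8 (0.76), Sema7a (0.76), Rabepk (0.74), Tle1 (0.73) and Insrr (0.73). Irf1 and Cyp11a1 were the 2 genes named for both. Cyp11a1 rose after 1500 ng in all 4 settings, by 0.84 and 0.94 at 6 h in naive and OVA mice and by 0.82 in each at 24 h (adjusted p from 5.03e-07 to 0.00371). Irf1, an interferon response factor, rose by 0.23 in naive mice and 0.22 in OVA mice at 24 h (adjusted p = 0.0363 and 0.00245) and by 0.13 in OVA mice at 6 h (adjusted p = 0.0493). Nfe2 rose by 0.58 in OVA mice at 24 h (adjusted p = 0.000172) and fell by 0.31 at 6 h (adjusted p = 0.0259), with 0.33 in naive mice at 24 h (adjusted p = 0.187). Likeness over groups and likeness over animals thus named partly different genes.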

How the data were processed

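The lungs of 149 BALB/c mice were measured on 1 Affymetrix array each. Per the labels' protocols, mirVana was used for extraction, and 100 ng of RNA went into a 3' in vitro transcription labelling. The authors deposited log2 values, which the submitters' processing notes ascribe to RMA, a method that removes background, normalizes arrays and combines probes. For RMA, version and filters: not given in the sources used here. There are no counts or detection calls, so the number of arrays limits the precision. The labels name 1 animal per array.

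Probe sets were named through a platform annotation table: 22892 named 1 gene, 260 several and 3014 none. Each gene was read by its brightest probe set, leaving 13494 genes. The fit (limma 3.58.1, R 4.3.3) held 1 mean per group over all arrays, with two-sided tests and Benjamini-Hochberg adjustment at 0.05 over all genes per comparison, for 68 comparisons. Correlations and beta-actin differences were tested by permutation, two-sided. The code was tested on simulated data.

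The members, the gene lists, the settings and the rules for naming genes were chosen with earlier results of these data known. Besides both chains and Fcer1g, the named genes were the 10 most like each chain by group means and the 5 most like by centred values, mast cell and basophil markers, and in each list up to 4 called members with the smallest p. Lists are described by counts and medians. Alternatives were the mean of probe sets, every probe set, quantile normalization, dropping the dimmest 40% of genes, array weights, the animal number as a block, a trended robust prior, the compared groups alone, saline as reference, the beta-actin difference as a covariate, leaving out the 6 keratin arrays, and leaving out each array in turn.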

Additional observations from a re-analysis of the deposited data

Results flagged for a closer look

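Animal 2 of OVA buffer at 24 h stood far below the other 7 arrays of its group for both chains. Its Fcer1a level was 4.87, with the nearest at 6.05, and its Ms4a2 level was 5.77, with the nearest at 7.004. The basophil protease Mcpt8 was 7.12 there and from 7.98 to 8.32 on the other arrays. Animal 7 of OVA 150 ng at 24 h read 6.88 for Ms4a2, with the nearest at 7.26. These 3 were found among 40 combinations of gene and group, and chance alone marks about 1 in 20.

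The 1500 ng effect differed between 24 and 6 h in 2 cases by limma. For Fcer1a in naive mice the difference was 1.004, and for Ms4a2 in OVA mice it was 0.65.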

How the results depend on the processing

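Over 54 results for the chains and up to 10 alternatives beside single arrays left out, both chains at 1500 ng in naive mice at 24 h and Ms4a2 at 1500 ng in OVA mice at 24 h kept direction and call in every fit. The mean of probe sets and the trended robust prior changed no call or sign. With every probe set in the fit, the slope and the 1500 against 150 ng difference of Ms4a2 in naive mice at 24 h (0.75 each) lost their call. Leaving out the dimmest 40% of genes gave no value, because neither chain passed that filter.

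Quantile normalization gave 0.067 for Fcer1a at 1500 ng in naive mice at 6 h, a reversed sign, and 0.42 (adjusted p = 0.0524) for Ms4a2 at 500 ng in OVA mice at 6 h. Array weights gave, for Fcer1a, 0.47 (called) at 150 ng and 0.41 (not called) at 500 ng in OVA mice at 24 h, -0.42 (called) for 24 against 6 h in naive saline and 0.71 (called) for the time difference of the 1500 ng effect in OVA mice. They also gave, all called, 0.55 for OVA against naive at 500 ng and 6 h, 0.74 for 1500 ng against saline in OVA mice at 24 h and 0.66 for the slope and for 1500 against 150 ng in naive mice at 24 h. For Ms4a2 they gave -0.12, -0.10 and 0.42 (none called) at 150, 500 and 1500 ng in naive mice at 6 h, 0.37 and 0.26 (not called) at 500 ng in OVA mice at 6 and 24 h, 0.10 for the OVA minus naive difference at 1500 ng and 24 h, a reversed sign, and -0.55 (called) for 24 against 6 h in naive buffer.

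The animal number as a replicate block reversed 1 value, Ms4a2 at 150 ng in naive mice at 6 h (-0.011), and changed no other call. The numbers did not pair animals: deviations from group means correlated by 0.00275 on average at the same number and 0.00339 at different numbers.

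With the compared groups alone, the called values of Ms4a2 at 1500 ng in naive mice at 6 h (0.60), of Fcer1a and Ms4a2 at 500 ng in OVA mice at 6 h (0.58 and 0.43) and at 24 h (0.69 and 0.56), of Fcer1a at 1500 ng in OVA mice at 24 h (0.62) of both time differences (1.004 and 0.65), of Fcer1a in naive buffer (-0.63) and Ms4a2 in OVA buffer (-0.43) over time, and of the Ms4a2 slope and 1500 against 150 ng difference in naive mice at 24 h (0.75 each) lost their call, and Fcer1a in naive saline (-0.43) gained one. Against saline in place of buffer, Fcer1a gave -0.061, 0.12 and -0.24 at the rising doses in OVA mice at 6 h, -0.0089 at 150 ng in naive mice at 24 h, and 0.54 and 0.46 at 500 and 1500 ng in OVA mice at 24 h. Ms4a2 gave -0.26, -0.14 and 0.34 in naive mice at 6 h, and 0.30 and 0.55 at 500 ng in OVA mice at 6 and 24 h. None of these was called.

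The beta-actin covariate gave 0.052 for Fcer1a at 1500 ng in naive mice at 6 h. It ended the calls for 24 against 6 h in saline (Fcer1a -0.35 in OVA mice, Ms4a2 -0.31 in naive and -0.27 in OVA mice) and buffer (Fcer1a -0.54 in naive, Ms4a2 -0.12 in OVA mice), for both time differences (0.91 and 0.25), and for the slope (0.70), the 1500 against 150 ng difference (0.69) and OVA against naive at 500 ng and 6 h (0.46) of Ms4a2. Without the keratin arrays, Fcer1a was called at 150 ng in naive mice at 6 h (-0.62), for OVA against naive buffer at 6 h (-0.67) in naive saline over time (-0.43) and for the slope and 1500 against 150 ng in naive mice at 24 h (0.78 each). Ms4a2 was called in naive buffer over time (-0.69), and it gave -0.27, -0.17 and 0.30 in naive mice at 6 h and 0.37 at 500 ng in OVA mice at 6 h, none called. The cause was not tested for any of these. The count of all genes called at 1500 ng moved with these settings too: with the covariate it went from 2071 to 629 (naive, 6 h), 8194 to 1042 (OVA, 6 h) and 132 to 44 (naive, 24 h), and without the keratin arrays from 2071 to 3483 and from 132 to 78.

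Leaving out single arrays gave these ranges where a call or sign moved in the comparisons with buffer and the differences between them (arrays that moved other calls are named beside those results): Fcer1a at 150 ng in OVA mice at 24 h from 0.34 to 0.56, Fcer1a time difference of the 1500 ng effect in naive mice from 0.83 to 1.22, Fcer1a at 1500 ng in naive mice at 6 h from -0.23 to 0.17, Fcer1a at 1500 ng in OVA mice at 24 h from 0.45 to 0.84, Fcer1a at 500 ng in naive mice at 6 h from -0.35 to 0.039, Fcer1a at 500 ng in OVA mice at 24 h from 0.52 to 0.78, Fcer1a at 500 ng in OVA mice at 6 h from 0.42 to 0.73, Ms4a2 at 150 ng in naive mice at 6 h from -0.12 to 0.11, Ms4a2 time difference of the 1500 ng effect in OVA mice from 0.47 to 0.83, Ms4a2 at 1500 ng in naive mice at 6 h from 0.48 to 0.71, Ms4a2 OVA minus naive difference of the 1500 ng effect at 24 h from -0.25 to 0.10, Ms4a2 at 500 ng in OVA mice at 24 h from 0.37 to 0.67 and Ms4a2 at 500 ng in OVA mice at 6 h from 0.34 to 0.53.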
